A study of Populus ussuriensis with 20 samples.

Results

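This account concerns the later response to low phosphate in the rooting stem base of poplar, that is the difference between 10 and 200 µM KH2PO4 at 12 and 24 h after transfer. The comparison took 8 of the 20 libraries of the series, chosen by their labelled phosphate level and time alone. They were 2 libraries each at 10 µM and 12 h, 200 µM and 12 h, 10 µM and 24 h, and 200 µM and 24 h. All groups were Populus ussuriensis (Ussuri poplar), with no genotype or treatment other than phosphate given. The stem cuttings had formed root primordia on solid Woody Plant Medium with sucrose before transfer to liquid medium of a modified recipe. RNA came from the whole basal end, primordia together with the tissue around them. In such bulk tissue, fewer cells of a type and less RNA per cell cannot be told apart. The labels number the libraries of a group but give no word on separate cultures or plants behind them, so p-values measure the spread between these libraries, which may be technical.

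Phosphate is taken up at the root surface by membrane transporters of the PHT1 family and enters nucleic acids, phospholipids and sugar phosphates. In Arabidopsis, shortage is sensed through SPX domain proteins, which release PHR transcription factors to switch on genes for phosphate transporters, secreted acid phosphatases and enzymes that replace phospholipids by galactolipids and sulpholipids. Low phosphate is also known to alter root growth and branching. The deposited table names genes by identifiers only and does not pair them with names or descriptions. Its genes could therefore not be assigned to these roles, and neither the labelled tissue nor the phosphate shortage was checked against marker genes. At most 2 identifiers higher and 2 lower are given for each comparison.

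Expression was given as FPKM, a fragment count scaled by gene length and library total, for 34699 genes. Tests covered the 24934 genes that reached an FPKM of 1 in 2 or more of the 20 libraries. Libraries of the series held 14053677 to 15764764 fragments, with 259 fragments as the median over tested genes and libraries at 12 and 24 h. Replicate libraries differed with an SD of 0.229 to 0.286 on the log2(FPKM + 1) scale over genes. Libraries at 10 µM differed from libraries at 200 µM of the same time by 0.268 to 0.316, a range that overlaps that of replicates. Libraries at 24 h differed from those at 12 h of the same phosphate level by 0.310 to 0.397. On the first principal component of the 8 libraries, with 36.2% of the variance, those at 24 h lay at 6.2 to 27.6 and those at 12 h at -23.8 to -10.6. On the second component (17.4%), the 10 µM libraries lay at 8.4, 20.4, 8.7 and 9 and the 200 µM libraries at -12.6, -20, 5.3 and -19.2. The 2 phosphate levels thus did not overlap on this component, and replicate 1 at 200 µM and 24 h lay nearest to the 10 µM libraries.

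Over 12 and 24 h together no single gene passed the threshold, and most differences were small on the log2(FPKM + 1) scale. The comparison took 4 libraries at each phosphate level with time as a block. The SD of the log2 differences over genes was 0.168 and the median was 0.002. By at least 1 log2 unit, 6 genes were higher and 6 lower at 10 µM (0.0241% of the tested genes each way). These counts were 60 and 75 with a pseudocount of 0.1, and 62 and 93 with limma's voom on fragment counts recovered from the FPKM values. With a library left out they ranged over 6 to 22 higher and 6 to 18 lower. The most higher genes (22, with 8 lower) came without replicate 1 at 10 µM and 24 h, and the most lower genes (18, with 15 higher) without replicate 1 at 200 µM and 24 h. Of the 8 libraries, replicate 2 at 200 µM and 12 h was the only one whose omission left both counts at 6. By limma with Benjamini-Hochberg adjustment, 0 of 24934 genes (0%) had an adjusted p under 0.05, and the smallest adjusted p was 0.157. With 1 mean for each of the 4 groups, the smallest adjusted p by limma was 0.0501. It was 0.0552 with voom and 0.0554 with all 20 libraries in the fit. The remaining alternatives that left no library out gave 0.147 to 0.248. The 0.0554 belonged to none of the 4 genes described next, whose adjusted p by limma in that fit lay between 0.386 and 0.607. An unadjusted p under 0.05 was reached by 2759 genes (11.1%), 1286 of them higher (5.16%) and 1473 lower (5.91%) at 10 µM. After quantile normalization the 2 sides were nearer to equal, with 1357 higher and 1389 lower. The number at this unadjusted p depended on single libraries. It was smallest without replicate 2 at 200 µM and 24 h, and largest without replicate 1 at 10 µM and 12 h. With voom the count past the threshold was also 0.

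Potri.007G062041 had the smallest p among genes higher at 10 µM. It measured 18.2 and 20.6 FPKM at 10 µM against 10.2 and 7.2 FPKM at 200 µM after 12 h. After 24 h it measured 13.8 and 17.3 FPKM at 10 µM against 7.8 and 6.09 FPKM at 200 µM. The 4 libraries at 10 µM all lay above the 4 at 200 µM, and the difference was of nearly the same size at both times. The log2 difference was 1.07 ± 0.12 (SE), 2.1-fold, with an adjusted p of 0.157. This fold, like all those given below, is a ratio of FPKM + 1. It is a short and thinly covered gene, with 51 to 75 fragments in the 10 µM libraries and 23 to 39 in the 200 µM libraries.

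Potri.001G334800 was the next gene on the higher side. At 12 h both libraries at 10 µM measured 13.9 FPKM, against 5.73 and 6.05 FPKM at 200 µM. At 24 h it measured 15.9 and 23.3 FPKM at 10 µM against 10.9 and 11.7 FPKM at 200 µM. The phosphate levels did not overlap at either time, and levels were higher at 24 h than at 12 h at both. Its log2 difference was 0.92 ± 0.12 (SE) with an adjusted p of 0.157.

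The lower side was led by Potri.001G352400 and Potri.008G043900, with smaller differences. Potri.001G352400 measured 12.1 and 12.4 FPKM at 10 µM against 22.5 and 21.1 FPKM at 200 µM after 12 h. After 24 h the values were 14.2 and 12.4 FPKM at 10 µM against 17.7 and 18.9 FPKM at 200 µM. Every 10 µM library lay below every 200 µM library, and the gap was narrower at 24 h. The log2 difference over both times was -0.61 ± 0.087 (SE), 0.657-fold, with an adjusted p of 0.157.

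Potri.008G043900 measured 14.1 and 13.4 FPKM at 10 µM against 22.3 and 20.9 FPKM at 200 µM after 12 h. After 24 h it measured 16 and 14.1 FPKM at 10 µM against 19.2 and 21.1 FPKM at 200 µM. Again the 4 libraries at 10 µM lay below the 4 at 200 µM. Its log2 difference was -0.51 ± 0.075 (SE), with an adjusted p of 0.157.

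**Figure D1:**
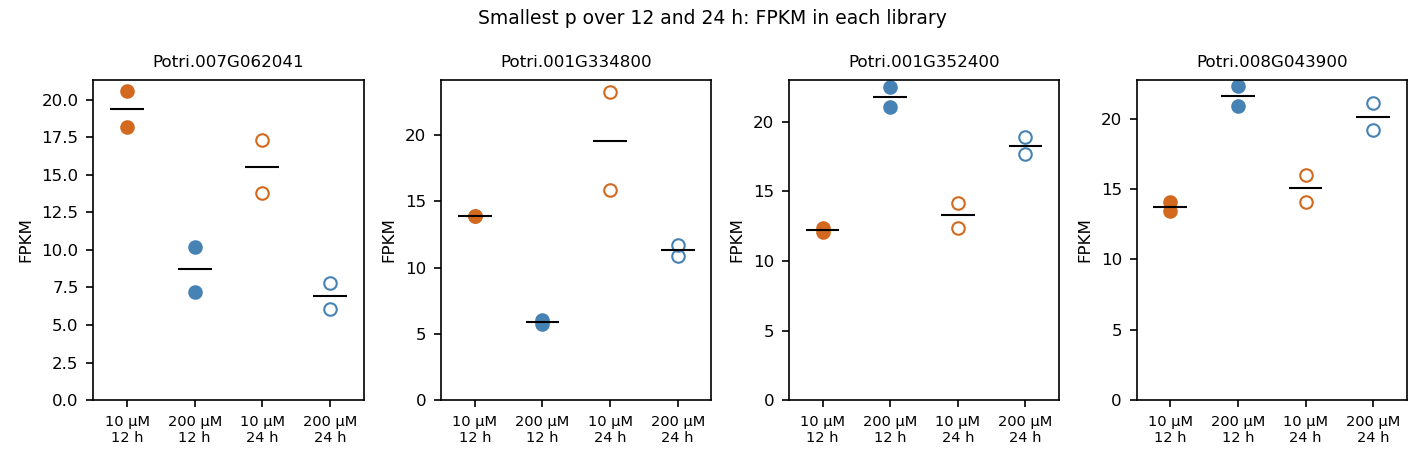
FPKM (y axis, from 0) of the 2 genes higher and the 2 lower at 10 µM with the smallest p over both times, by phosphate level and time (x axis). Each point is 1 library and each line the mean of 2. In Potri.007G062041 the 10 µM libraries lie between 13.8 and 20.6 FPKM and the 200 µM libraries between 6.09 and 10.2 FPKM.

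Complete separation of this kind was found in both directions about equally often. In 502 genes (2.01%) all 4 libraries at 10 µM lay above all 4 at 200 µM, and in 490 genes (1.97%) all 4 lay below. Within each time separately, both libraries at 10 µM lay above both at 200 µM at 12 and at 24 h in 1237 genes (4.96%), and below at both times in 1215 genes (4.87%). The order was opposite at the 2 times in further genes, with 830 (3.33%) above at 12 h and below at 24 h, and 650 genes (2.61%) below at 12 h and above at 24 h. Of the 12 genes with a mean difference of at least 1 log2 unit, 5 had no overlap between the 4 libraries of each level, Potri.007G062041 and Potri.015G031400 among them.

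The balance of higher and lower genes differed with abundance, which was described and not tested. Tested genes were divided into 4 groups of equal size by their mean FPKM over the 8 libraries. In the lowest group (0.0422 to 3.54 FPKM), 472 of 6234 genes (7.57%) had an unadjusted p under 0.05, and 35.8% of these were higher at 10 µM. In the highest group (20.8 to 5140 FPKM), 899 of 6234 genes (14.4%) did, and 55.3% of these were higher at 10 µM. The median size of the log2 difference among these genes was 0.38 in the lowest group and 0.225 in the highest. Standard errors were wider in weakly expressed genes, with a median of 0.137 in the lowest group and 0.0705 in the highest.

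**Figure D2:**
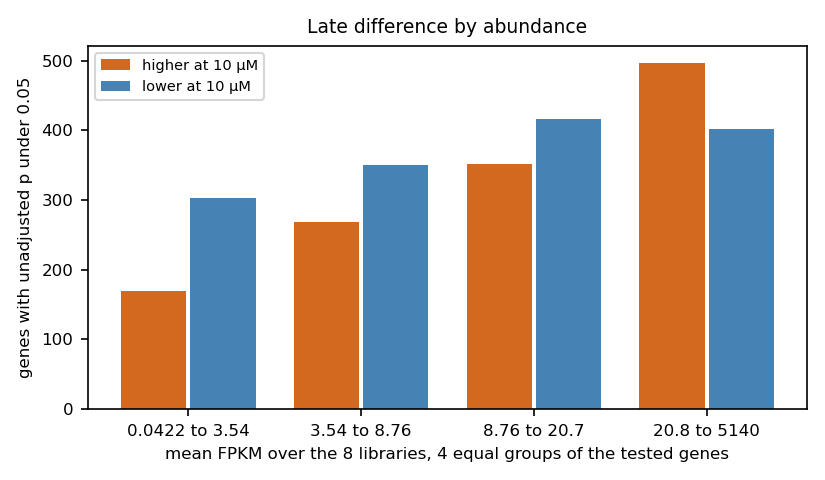
Genes with an unadjusted p under 0.05 over 12 and 24 h (y axis), in 4 equal groups of the tested genes by mean FPKM (x axis). Orange bars count genes higher at 10 µM and blue bars genes lower. The lowest group has 169 higher and 303 lower genes, the highest 497 higher and 402 lower.

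Leaving out a library changed the count of genes past the threshold in 3 of 8 cases. In the absence of replicate 1 at 200 µM and 24 h 19 genes passed, 3 higher and 16 lower, and Potri.007G062041 was 1 of them (adjusted p 0.0408). In the absence of replicate 1 at 10 µM and 24 h 2 passed, namely Potri.001G334800 (adjusted p 0.01) and Potri.016G096300 (0.0376), and in the absence of replicate 2 of that group 1 did. The median 95% confidence interval of the difference extended 0.218 (log2) on either side.

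At 12 h alone most of the larger differences were on the higher side at 10 µM. A log2 difference of at least 1 was reached by 99 genes on the higher side (0.397%) and 39 on the lower (0.156%). By limma, 0 genes (0%) passed the adjusted threshold, with a smallest adjusted p of 0.0591, and 2038 genes (8.17%) had an unadjusted p under 0.05, 891 higher (3.57%) and 1147 lower (4.6%). With voom on recovered fragments 32 genes passed (0.128%), 22 higher and 10 lower. Their adjusted p in the FPKM fit lay between 0.0591 and 0.117. Without replicate 1 at 200 µM and 12 h 12 genes passed in the FPKM fit, all 12 higher, and without replicate 2 at 10 µM and 12 h 1 gene did.

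Potri.004G100100, the gene with the smallest p on the higher side at 12 h, measured 81 and 84.2 FPKM at 10 µM against 30.2 and 19.4 FPKM at 200 µM. At 24 h it measured 81 and 111 FPKM at 10 µM against 74 and 87.7 FPKM at 200 µM, where the levels overlapped. Libraries at 2 and 4 h lay between 60.6 and 111 FPKM at either level, above the 200 µM libraries at 12 h. At 8 h it measured 109 and 33.3 FPKM at 10 µM against 85 and 89.2 FPKM at 200 µM, so replicate 2 at 10 µM was nearly as low. The log2 difference at 12 h was 1.73 ± 0.21 (SE), 3.32-fold, with an adjusted p of 0.0784, and voom gave 1.76 with an adjusted p of 0.0157. With all 20 libraries in the limma fit the adjusted p was 0.446.

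Potri.016G096300 measured 19.7 and 20.2 FPKM at 10 µM against 9.59 and 9.41 FPKM at 200 µM after 12 h. After 24 h it measured 30 and 38.3 FPKM at 10 µM against 21.4 and 23.8 FPKM at 200 µM. Both libraries at 10 µM exceeded both at 200 µM at each of these times. The log2 difference at 12 h was 0.995 ± 0.12 (SE) with an adjusted p of 0.0784, and 0.0198 with voom. By limma with all 20 libraries in the fit the adjusted p was 0.981.

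Potri.018G053300 had the smallest p of all genes at 12 h and was lower at 10 µM, with 8.68 and 8.57 FPKM against 19.6 and 18.3 FPKM at 200 µM. At 24 h it measured 14.6 and 15.9 FPKM at 10 µM against 20.3 and 22.6 FPKM at 200 µM. At 10 µM the level thus stood higher at 24 h than at 12 h, while remaining below that at 200 µM. The log2 difference at 12 h was -1.05 ± 0.095 (SE), 0.483-fold, with an adjusted p of 0.0591, which was 0.0114 with voom and 0.049 after quantile normalization. Potri.001G352400, described above, was the second gene on this side, with a log2 difference of -0.78 ± 0.096 at 12 h and an adjusted p of 0.0784. The limma fit of all 20 libraries gave adjusted p of 0.731 for Potri.018G053300 and 0.755 for Potri.001G352400.

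At 24 h alone more of the larger differences were on the lower side at 10 µM. A log2 difference of at least 1 was reached by 21 genes on the higher side (0.0842%) and 40 on the lower (0.16%). By limma, 0 genes (0%) passed the adjusted threshold, with a smallest adjusted p of 0.063, and 2728 genes (10.9%) had an unadjusted p under 0.05, 1227 higher (4.92%) and 1501 lower (6.02%). After quantile normalization 1389 were higher and 1362 lower at this unadjusted p. With voom 10 genes passed (0.0401%), 7 higher and 3 lower, with adjusted p between 0.063 and 0.166 in the FPKM fit. The order of the 2 sides depended on a library: without replicate 1 at 10 µM and 24 h, 57 genes were higher and 53 lower by at least 1 log2 unit. At 12 h the corresponding counts stayed larger on the higher side with any library left out, and came closest without replicate 1 at 10 µM and 12 h, with 119 higher and 98 lower.

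Potri.015G031400 led the higher side at 24 h, with 22.1 and 19.3 FPKM at 10 µM against 5.41 and 5.73 FPKM at 200 µM. At 12 h it measured 6.95 and 7.96 FPKM at 10 µM against 4.4 and 6.38 FPKM at 200 µM. The separation held at both times and was much wider at 24 h. Both 10 µM libraries also exceeded both 200 µM libraries at 2, 4 and 8 h. The log2 differences there were 1.24, 0.58 and 1.16, against 0.42 at 12 h. The late difference of this gene exceeded that at 2 and 4 h by 0.16 ± 0.32 (SE). The log2 difference at 24 h was 1.72 ± 0.16 (SE), 3.3-fold, with an adjusted p of 0.063, and 0.00483 with voom. With all 20 libraries in the limma fit the adjusted p was 0.285.

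Potri.006G103900 measured 57.3 and 55.4 FPKM at 10 µM against 30.5 and 25.7 FPKM at 200 µM after 24 h. At 12 h the values were 25.3 and 24.9 FPKM at 10 µM against 19 and 22.7 FPKM at 200 µM. The levels did not overlap at either time. The log2 difference at 24 h was 0.98 ± 0.11 (SE), 1.98-fold, with an adjusted p of 0.0944, and 0.00869 with voom. By limma with all 20 libraries in the fit the adjusted p was 0.784.

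On the lower side Potri.007G120500 measured 11 and 8.33 FPKM at 10 µM against 32.2 and 26 FPKM at 200 µM after 24 h. At 12 h it measured 13.8 and 12.3 FPKM at 10 µM against 12 and 9.22 FPKM at 200 µM, so the order was the other way round. The 200 µM libraries at 24 h held the highest values of this gene in the series. Its log2 difference at 24 h was -1.50 ± 0.17 (SE), 0.353-fold, with an adjusted p of 0.0944, and 0.0109 with voom. The limma fit of all 20 libraries gave an adjusted p of 0.142.

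Potri.010G245000 was a weakly expressed gene with 1.47 and 1.49 FPKM at 10 µM against 4.55 and 4.32 FPKM at 200 µM after 24 h. These values rested on 9 fragments in each 10 µM library and on 28 and 27 fragments at 200 µM. The log2 difference at 24 h was -1.13 ± 0.14 (SE) with an adjusted p of 0.105, and -1.53 with voom, where the adjusted p was 0.272. For this gene the limma fit of all 20 libraries gave an adjusted p of 0.892. At 12 h it measured 1.94 and 2.48 FPKM at 10 µM against 3.31 and 3.85 FPKM at 200 µM, again without overlap.

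**Figure D3:**
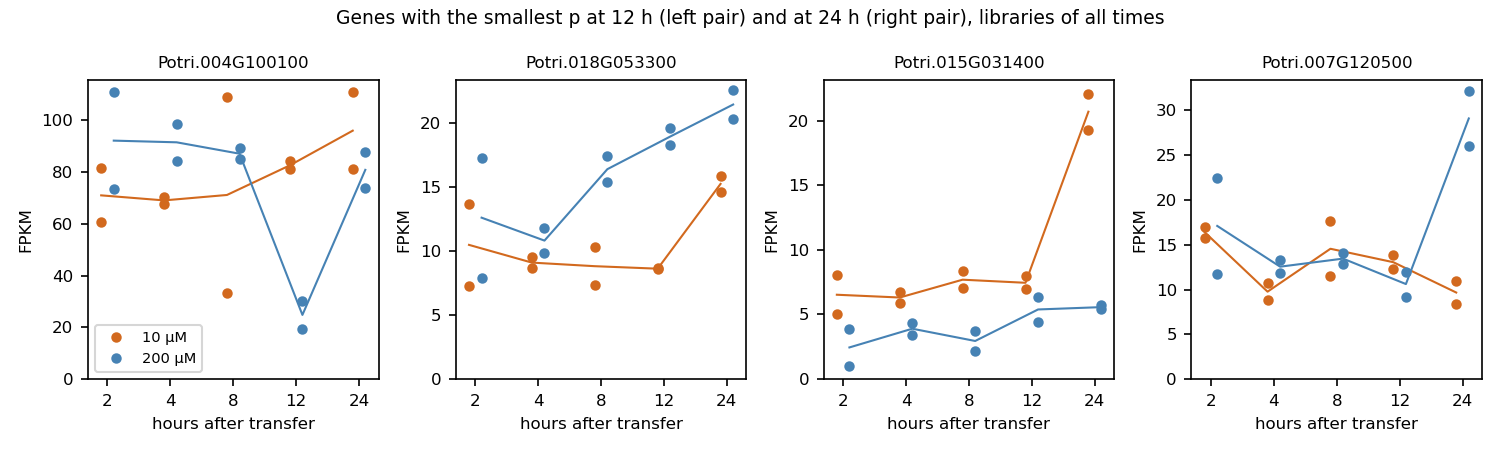
FPKM (y axis, from 0) at 5 times after transfer (x axis, evenly spaced labels in hours) for the genes with the smallest p higher and lower at 12 h and at 24 h. Points are libraries, lines join means of 2, orange is 10 µM and blue 200 µM. Potri.004G100100 at 200 µM stands at 30.2 and 19.4 FPKM at 12 h, and Potri.015G031400 at 10 µM at 22.1 and 19.3 FPKM at 24 h.

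Little of the difference at one time was seen at the other. Across the 24934 genes the log2 differences at 12 and 24 h, which come from separate libraries, correlated with a Pearson r of 0.07 and a Spearman rho of 0.123. The points share the libraries of each time, and genes are not independent replicates. The sign was the same at both times in 55.2% of genes. Genes with an unadjusted p under 0.05 in the same direction at both times numbered 112 on the higher side, 12.6% of the 12 h list and 9.13% of the 24 h list. On the lower side they numbered 193, 16.8% of the 12 h list and 12.9% of the 24 h list. A further 106 genes had opposite directions. The tests at 12 and 24 h used 1 variance estimate for each gene, so these lists are not independent.

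The share of differences that recurred was unequal between the directions, and this inequality was not tested. Of the 1147 genes lower at 12 h (unadjusted p under 0.05), 828 (72.2%) were also lower at 24 h, with a median log2 difference of -0.125 there. Of the 891 genes higher at 12 h, 449 (50.4%) were also higher at 24 h, with a median of 0.003. Among all tested genes 49.4% were above 0 at 24 h. Read in the other direction, 857 of the 1227 genes higher at 24 h (69.8%) were higher at 12 h, where 52.8% of all tested genes were above 0, and 804 of the 1501 genes lower at 24 h (53.6%) were lower at 12 h.

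**Figure D4:**
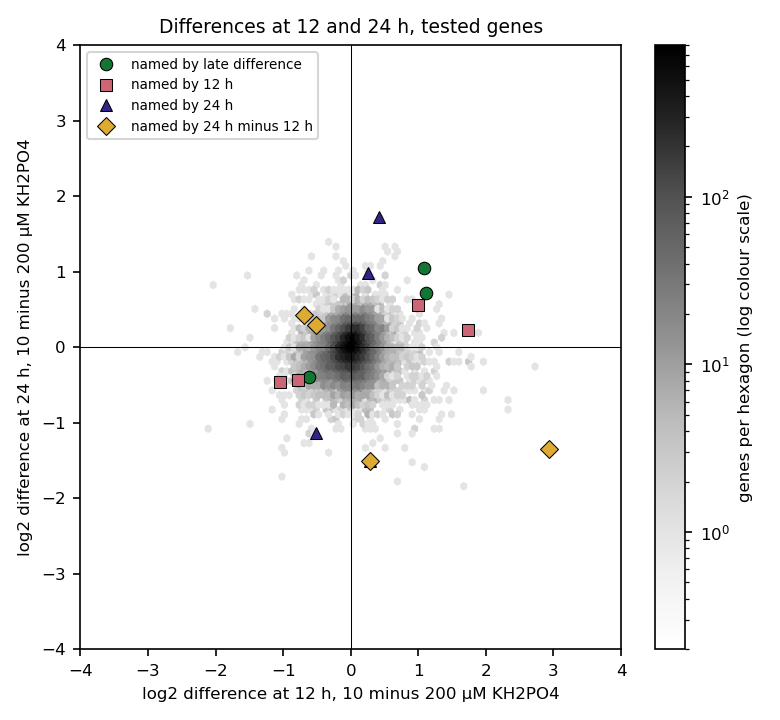
Log2 difference of each tested gene at 12 h (x axis) and at 24 h (y axis), 10 minus 200 µM KH2PO4, with the number of genes per hexagon as grey level on a log scale. Symbols mark the named genes by the comparison that named them. Potri.015G031400 lies at 0.42 and 1.72, and Potri.004G100100 at 1.73 and 0.23.

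The genes with large differences at 12 h stood apart in the 200 µM libraries. For each gene the level in a library was set against its mean over all libraries at 2, 4 and 24 h, at both phosphate levels. In the 99 genes higher at 10 µM by at least 1 log2 unit, the median over genes was 0.01 and -0.05 in the 10 µM libraries at 12 h, against -1.05 and -1.40 in the 200 µM libraries at 12 h. For 90 of the 99 genes the 10 µM mean at 12 h lay closer to the mean of the other times than the 200 µM mean did. Among the other libraries of the series, replicate 2 at 10 µM and 8 h was the lowest on this list, at -0.91. The genes were chosen on the 12 h libraries, so these values describe them and test nothing.

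In the 39 genes lower at 10 µM by at least 1 log2 unit at 12 h, the 200 µM libraries again lay farther from the other times. Their median was -0.21 and -0.37 in the 10 µM libraries at 12 h against 0.73 and 0.98 in the 200 µM libraries. Only 30 of the 99 higher genes (30.3%) were higher at 24 h too, with a median log2 difference of -0.20 there, whereas 29 of the 39 lower genes (74.4%) were lower at 24 h, with a median of -0.15. At 24 h both phosphate levels departed from the mean over 2, 4 and 12 h. The 21 genes higher at 24 h had medians of 0.85 and 0.80 in the 10 µM libraries against -0.36 and -0.55 in the 200 µM libraries. The 40 genes lower at 24 h had medians of -0.75 and -0.54 at 10 µM against 0.31 and 0.59 at 200 µM.

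**Figure D5:**
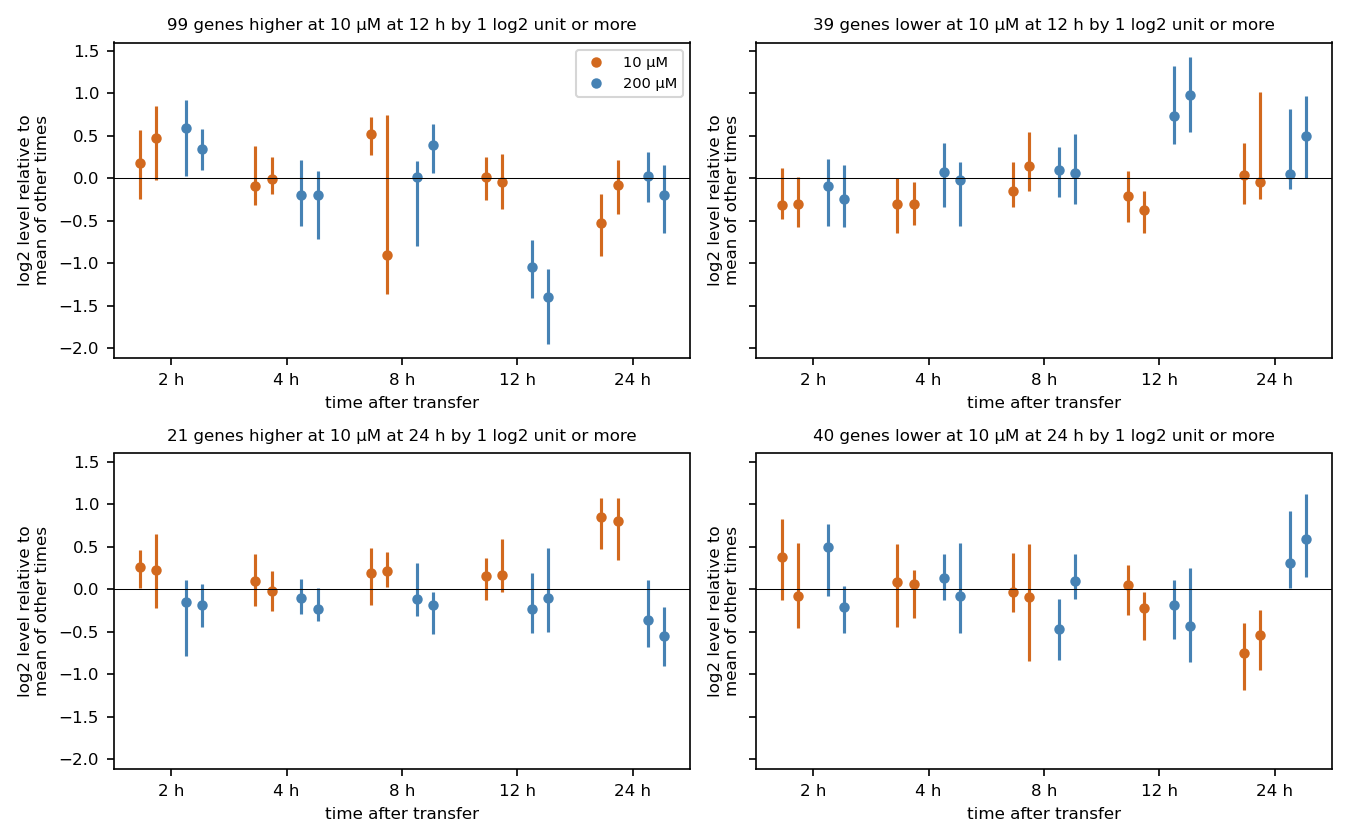
Log2 level of the genes with a difference of at least 1 log2 unit at 12 h (upper panels) or 24 h (lower panels), relative to each gene's mean over the other of the times 2, 4, 12 and 24 h (y axis), in each library by time (x axis). Points are medians over genes and bars quartiles, with 10 µM in orange and 200 µM in blue. The 99 genes of the first panel stand at -1.05 and -1.40 in the 200 µM libraries at 12 h and at 0.01 and -0.05 in the 10 µM libraries.

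The size of the lists and the balance of their directions depended on the scale. With a pseudocount of 0.1 in place of 1, 285 genes were higher and 221 lower by at least 1 log2 unit at 12 h, and 143 higher and 227 lower at 24 h. With voom, 301 genes were higher and 262 lower at 12 h, and 173 higher and 255 lower at 24 h. At 12 h the directions were thus nearer to equal than the 99 and 39 genes of the main fit. The side with more genes stayed the same at each time. The differences were also set against the changes along the time course. Across genes, the difference at 12 h correlated with the mean change between 2 and 24 h in the other libraries with r = -0.255, and with that between 4 and 24 h with r = -0.134. The difference at 24 h correlated with the mean change between 2 and 12 h with r = 0.175, and with that between 4 and 12 h with r = 0.235. No library entered both sides of these correlations, which are given as a description.

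Whether the difference itself varied between 12 and 24 h was tested as the difference at 24 h minus that at 12 h. Genes with a reversed order led this comparison, but by limma 0 of 24934 genes (0%) passed, with a smallest adjusted p of 0.275. An unadjusted p under 0.05 was reached by 1872 genes (7.51%), 740 with a larger value at 24 h (2.97%) and 1132 with a smaller one (4.54%). With voom the count past the threshold was also 0. With a library left out, 1 gene passed in 3 of 8 cases. The library was replicate 2 in each, from 10 µM at 12 h, from 10 µM at 24 h or from 200 µM at 24 h.

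Potri.003G081200 measured 12.6 and 11.1 FPKM at 10 µM against 18.3 and 21.4 FPKM at 200 µM after 12 h. After 24 h it measured 20.2 and 19.7 FPKM at 10 µM against 14.5 and 14.6 FPKM at 200 µM. The libraries at 10 µM were below those at 200 µM at 12 h and above them at 24 h. The change in the difference was 1.13 ± 0.15 (log2, SE) with an adjusted p of 0.275.

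Potri.003G150800 had the same pattern, with 24.7 and 21.8 FPKM at 10 µM against 33.6 and 33.9 FPKM at 200 µM after 12 h. After 24 h it measured 42 and 38.8 FPKM at 10 µM against 33.8 and 31.6 FPKM at 200 µM. Here the level at 200 µM was nearly equal at both times and the level at 10 µM was not. Its change in the difference was 0.82 ± 0.13 (log2, SE) with an adjusted p of 0.275.

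In the other direction, Potri.007G120500 had a change in the difference of -1.79 ± 0.24 (log2, SE) and Potri.013G162100 of -4.29 ± 0.59, both with an adjusted p of 0.275. Potri.013G162100 is a very short gene (117 bases by the recovered length) whose values rest on few fragments. It held 19 and 12 fragments at 10 µM against 1 and 0 at 200 µM after 12 h. After 24 h it held 2 and 4 fragments at 10 µM against 6 and 17 at 200 µM. Its order was thus reversed between the times, and the size of the change depended on the pseudocount (-6.83 with 0.1).

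The late difference was also set against that at 2 and 4 h, in a fit of all 20 libraries. No gene (0%) passed the test of late minus early difference by limma, the smallest adjusted p was 0.5, and 868 genes (3.48%) had an unadjusted p under 0.05, 391 with a larger late value (1.57%) and 477 with a smaller one (1.91%). With voom the count was 0, and 2 genes passed without replicate 2 at 10 µM and 24 h. Potri.007G062041 had log2 differences of 0.45 and 0.66 at 2 and 4 h and of 1.09 and 1.06 at 12 and 24 h, and its late difference exceeded its early one by 0.52 ± 0.38 (SE). Potri.001G334800 had -0.16 and 0.26 at 2 and 4 h against a late difference of 0.92, and Potri.008G043900 had -0.02 and 0.20 against -0.51. At 8 h the order of Potri.001G334800 was reversed, with a log2 difference of -0.97. It measured 22.3 and 5.74 FPKM at 10 µM against 22.7 and 24.6 FPKM at 200 µM then. Potri.007G062041 (1.26) and Potri.008G043900 (-0.71) had the direction of their late difference at 8 h, but in Potri.008G043900 the phosphate levels overlapped then. At 4 h both 10 µM libraries of Potri.008G043900 lay above both at 200 µM. Potri.001G352400 had log2 differences of -0.14 and -0.46 at 2 and 4 h and of 0.55 at 8 h, against -0.61 late. At 8 h it measured 8.8 and 18.9 FPKM at 10 µM against 9.63 and 7.58 FPKM at 200 µM.

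Genes of the late comparison showed little of their difference at the earliest time. Of the 1286 genes higher at 12 and 24 h with an unadjusted p under 0.05, 46% were higher at 2 h, 62% at 4 h and 57.2% at 8 h. Of the 1473 lower genes, 53.3% were lower at 2 h, 64.8% at 4 h and 64% at 8 h. Among all tested genes, the sign matched that of the late difference in 48.9% at 2 h, 54.6% at 4 h and 56.1% at 8 h. This share is not split by direction, so it gives no separate baseline for the higher and the lower genes. Across all tested genes the late difference correlated with that at 2 h with r = -0.005, at 4 h with r = 0.156 and at 8 h with r = 0.137. These libraries did not enter the late comparison, and the correlations are across genes, which are not independent replicates.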

How the data were processed

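RNA sequencing values were deposited by the authors as FPKM, fragments scaled by gene length and library total. Per the submitters' processing notes, HISAT2 2.1.0 and Bowtie2 2.2.3 were used, with no role stated for either. Genome, annotation, counting program and the handling of reads common to near-identical genes: not given in the sources used here. The table held 0 further columns of values.

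Tests used log2(FPKM + 1), unscaled between libraries, in genes that reached an FPKM of 1 in 2 or more of the 20 libraries. Folds were taken from these log2 differences and are ratios of FPKM + 1. On this scale the fold change of low genes is understated. limma 3.58.1 in R 4.3.3 was fitted with a mean trend in the variance, two-sided, with Benjamini-Hochberg adjustment over 24934 genes and a threshold of 0.05. The late difference used 8 libraries with time as a block. The differences at 12 h and 24 h, and between them, used 1 mean for each of the 4 groups. The late minus early difference used all 20 libraries and 10 group means. Differences are 10 minus 200 µM, and median total degrees of freedom were 9.22, 8.52 and 14.1 in these fits.

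Whole fragments were recovered from the steps of the FPKM values for 24934 of 24934 tested genes (100%), to within 0.06 of a fragment, and used for voom. The fits and the recovery were tested on simulated data. The members, gene lists, rule and tests were chosen with earlier results of these data known. The gene lists, to be matched to gene descriptions, were void, since the identifiers come without descriptions. The rule named, in each comparison, the 2 genes higher and the 2 lower with the smallest p. Alternatives were another pseudocount, other filters, quantile normalization, voom, a replicate block, all 20 libraries in the fit, and each library left out.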

Additional observations from a re-analysis of the deposited data

How the results depend on the processing

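The late difference gave 0 genes past the threshold under 8 alternatives that kept all 8 libraries, and 0 to 19 genes with a library left out. The range with a library left out was 0 to 12 at 12 h, 0 to 1 at 24 h, 0 to 1 for the difference between these times and 0 to 2 for late minus early. At 12 h voom gave 32 genes and quantile normalization 1 (Potri.018G053300). At 24 h voom gave 10 genes. For late minus early, 1 gene passed with no filter on low values (Potri.008G052451, chosen after its values were seen). Single genes that passed with a library left out were likewise chosen after their values were seen: Potri.017G047000 for the late difference, Potri.014G185948 at 12 h, Potri.011G110300 and Potri.001G443600 at 24 h, Potri.014G185948, Potri.005G123600 and Potri.001G443600 for the difference between these times, and Potri.013G070350 and Potri.002G050300 for late minus early.

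With the replicate block, 0 genes passed for the late difference, 2 at 12 h (Potri.011G126000 and Potri.013G162100), 0 at 24 h, 1 for the difference between these times (Potri.013G162100) and 0 for late minus early. The labels do not say that a number pairs libraries. Same-numbered libraries of the 2 phosphate levels deviated with r = 0.074 at 12 h and -0.01 at 24 h.

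Counts at an unadjusted p under 0.05 moved more. With all 20 libraries in the fit the count was 1596 for the late difference (6.4% of tested genes, against 2759 with 8). At 12 h it was 1132 (4.54%, against 2038) and at 24 h 1272 (5.1%, against 2728). For the difference between the times it was 854 (3.43%, against 1872). Without 1 library it was 1179 at 12 h and 1156 for the difference between the times (replicate 2 at 200 µM and 12 h), and 1565 at 24 h (replicate 1 at 10 µM). For late minus early (868) leaving out replicate 1 at 200 µM and 2 h gave 1581, and replicate 2 at 10 µM and 2 h gave 1304. The 14 named genes kept their direction in all 212 refits of the comparisons that named them, and passed the threshold in 12. A library left out leaves its group with 1 library, which is assumed to vary like the others.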
